A study of Homo sapiens with 6 samples.

Results

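A group of 7 keratin genes that mark basal or activated stratified epithelium were followed in MCF10A cells, namely KRT5, KRT14, KRT15, KRT17, KRT6A, KRT6B and KRT16. They were chosen by name, by no threshold on their values, but with earlier results of these data known. The gene lists set beside them below were also chosen with those results known. All 7 keratins were among the 19198 genes of the deposited RNA-Seq table. MCF10A is an established, immortalized human mammary epithelial line, so the samples represent 1 line. Cells of both groups were kept in DMEM/F12 with 5% horse serum. The 3 control samples also received insulin at 10 µg/ml, EGF at 20 ng/ml, cholera toxin at 100 ng/ml and hydrocortisone at 0.5 µg/ml, and the 3 growth factor-depleted samples received none of the 4. The question was how gene expression differs when these factors are withdrawn. The sample labels list 3 samples per group although the design text of the series speaks of a lower number, they do not give the length of depletion, and they do not say whether the samples were separate cultures. The p-values below therefore measure only the spread between these samples, which may be technical.

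Keratins are the intermediate filament proteins of epithelial cells. Each filament is built from pairs of an acidic type I and a basic type II keratin. The genes of the 2 types lie in separate clusters on chromosomes 17 and 12, except that the type I gene KRT18 lies on chromosome 12. KRT5 (type II) and KRT14 (type I) form the pair of basal cells in stratified epithelia and in the outer layer of the mammary duct, and KRT15 is a further type I keratin of basal cells. KRT6A, KRT6B (type II), KRT16 and KRT17 (type I) are known for their induction in wounded, inflamed and hyperproliferating epithelium and are called stress keratins here.

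Depth ranged from 7472418 to 28672630 reads on genes per sample, and 3 reads corresponded to 1.76 to 6.71 normalized counts. The labels call the cells luminal ductal. In the control samples the basal markers KRT5, KRT15, KRT17 and TP63 were expressed, TP63 at 271, 359 and 1615 normalized counts. KRT14, also a basal marker, was scarce at 264, 58.6 and 12.8. Some luminal markers were present too, with ESR1 at 206, 181 and 63.9 and FOXA1 at 184, 285 and 180. Like TP63, both were well below KRT5, at 38503, 12739 and 13008. The luminal markers EPCAM, at 3990, 1899 and 887, and MUC1, at 1164, 629 and 2690, were higher than ESR1 and FOXA1. Of the 10 luminal genes listed, PGR, ELF5 and KIT were not among the genes of the deposited table. Some markers of both kinds were thus present, and the label was not used as a cell type. Depleted replicate 1 stood apart for the keratins. It was the lowest depleted sample for 6 of the 7 genes and the highest for KRT14. Control replicate 3 was the lowest control for 6 of the 7. In bulk RNA, fewer cells of a type and less RNA per cell cannot be told apart.

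KRT6A and KRT6B are near-identical copies, which bears on how their reads can be assigned. Their coding sequences have 1695 bases each and were 97.5% identical in Gencode v44, differing at 43 positions. Of 1596 coding windows of 100 bases, the length of the reads, 218 were identical between the 2 genes and 58.6% differed at no more than 2 bases.

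Over whole transcripts, 18.2% of the 100-base windows of KRT6A and 24.4% of those of KRT6B also occurred in a transcript of another gene, in both cases KRT5, KRT6C or the other of the pair. The share was 6.05% for KRT14 and 7.12% for KRT16, which share windows with each other and with KRT16 pseudogenes, 1.64% for KRT5, 0.353% for KRT17 and 0 of 1613 windows for KRT15. How reads that map to several genes were counted is not given in the sources used here, so the split between KRT6A and KRT6B is uncertain, and KRT6C was not analysed here.

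The keratins did not move in 1 direction on growth factor depletion. KRT15 was the 1 gene of the 7 called changed, and it fell. A gene was called when its adjusted p was under 0.05 and its change was at least 2-fold, using limma on log2(normalized count + 1) with Benjamini-Hochberg adjustment over 16988 genes. Of all genes tested, 6.33% were called, 1.97% lower and 4.36% higher. Of the 7 keratins, 4 had a negative and 3 a positive fold change, and the median was -2.04 on the log2 scale against -0.03 over all genes tested. That median is KRT5's own value and was -0.54 without depleted replicate 1, against -0.04 over all genes. No member was called higher by limma or edgeR, and 1, KRT17, was called higher by DESeq2. At an unadjusted p under 0.05 there were 4 members, KRT14 and KRT17 higher and KRT15 and KRT6B lower, where 11.4% of all genes were higher and 8.62% lower by the same rule. In 2 of the 7, KRT15 and KRT6B, every depleted sample lay below every control sample, as in 12.1% of all genes, and in 1, KRT17, every depleted sample lay above, as in 13.5%. With recovered whole reads, edgeR called 5.72% of all genes and DESeq2 12.4%.

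**Figure D1:**
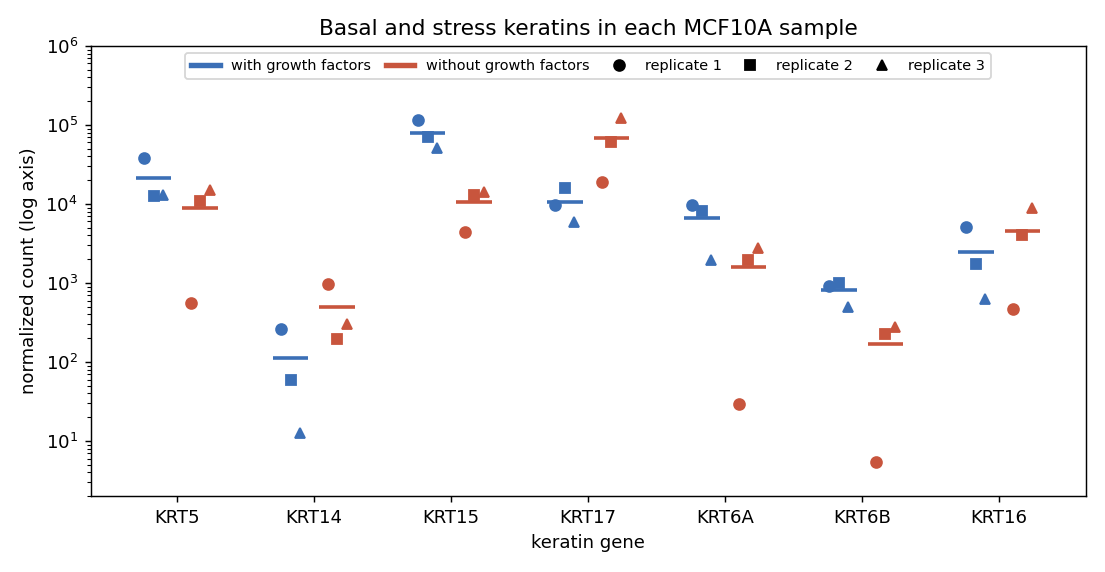
Normalized counts (log axis) of the 7 keratins in each sample, with the 3 control samples in blue, the 3 depleted samples in red, a marker shape for each replicate number and a bar at the group mean. The groups are apart for KRT15, KRT17 and KRT6B and overlap for the others, and depleted replicate 1 is far below the other depleted samples for KRT5, KRT6A and KRT6B.

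Among the basal keratins, KRT15 (ENSG00000171346, chromosome 17, 41513745 to 41522529, hg38) stood at 114664, 70453 and 50863 normalized counts in the controls, and at 4356, 12902 and 14194 in the depleted samples, here and below in the order of replicates 1, 2 and 3. All depleted samples were below all controls, and the lowest control was still several times the highest depleted sample. The mean went from 78660 ± 32683 (SD, n = 3) to 10484 ± 5346 (SD, n = 3), a ratio of means of 7.5. The log2 fold change was -3.00 ± 0.58 (SE), with a 95% interval from -4.33 to -1.67 and an adjusted p of 0.0201 by limma. edgeR gave an adjusted p of 0.035 and DESeq2 one of 1.1e-06. The decrease kept its size when single samples were left out, at -3.31 to -2.46, but the call did not. The call held without control replicate 3 (adjusted p = 0.0149 by limma) and was lost without control replicate 1 or 2 and without each depleted replicate, where the adjusted p reached up to 0.0705 and was 0.0503 without depleted replicate 1.

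KRT5 (ENSG00000186081, chromosome 12, 52514575 to 52520530, hg38), the type II basal keratin, had 38503, 12739 and 13008 normalized counts in the controls and 562, 10908 and 14996 in the depleted samples. Depleted replicates 2 and 3 lay close to control replicates 2 and 3, with ratios of 0.856 and 1.15, while the ratio between the replicates numbered 1 was 0.0146. The labels do not say whether samples of the same number were handled together, and they are set side by side for description. The groups overlapped, and the means were 21417 ± 14798 and 8822 ± 7440 (SD, n = 3 each). The log2 fold change of -2.04 ± 1.14 (SE, 95% interval -4.64 to 0.56) had an adjusted p of 0.377 by limma. It rested on 1 library, since it was -0.54 without depleted replicate 1, with an adjusted p of 0.721.

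KRT14 (ENSG00000186847, chromosome 17, 41582279 to 41586895, hg38), the type I partner of KRT5, was the scarcest basal keratin in every sample except depleted replicate 1. It had 264, 58.6 and 12.8 normalized counts in the controls, the last from 13 reads, and 980, 193 and 306 in the depleted samples. Each depleted sample exceeded the control of its own number, by 3.71, 3.3 and 24 times, yet control replicate 1 exceeded depleted replicate 2, so the groups overlapped. The log2 fold change was 2.69 ± 1.03 (SE, 95% interval 0.35 to 5.03) with an adjusted p of 0.184 by limma, 0.265 by edgeR and 0.093 by DESeq2. Without control replicate 3 it was 1.63, and without depleted replicate 1 it was 2.02.

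Among the stress keratins, KRT17 (ENSG00000128422, chromosome 17, 41619442 to 41624842, hg38) had 9703, 16142 and 5882 normalized counts in the controls and 19236, 61385 and 123480 in the depleted samples. All depleted samples were above all controls, although depleted replicate 1 was only slightly above control replicate 2. The means were 10576 ± 5186 and 68033 ± 52439 (SD, n = 3 each), a ratio of 6.43. On the log2 scale the change was 2.44 ± 0.71 (SE, 95% interval 0.81 to 4.06), and its adjusted p was 0.0877 by limma, 0.0717 by edgeR and 3.8e-04 by DESeq2. Without depleted replicate 1 the change was 3.16 with an adjusted p of 0.0253, past the threshold. The pseudogene KRT17P3, which shares 5 windows of 100 bases with KRT17, followed it at 12.5, 23.4 and 9.84 normalized counts in the controls and 31.1, 94.4 and 199 in the depleted samples. Whether its reads came from KRT17 was not tested, and no other pseudogene of these keratins was analysed here.

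KRT16 (ENSG00000186832, chromosome 17, 41609778 to 41615899, hg38), the type I keratin that accompanies KRT6, had 5059, 1734 and 622 normalized counts in the controls and 473, 4104 and 8888 in the depleted samples. The control values all lay within the range of the depleted values. The replicate ratios were 0.0935, 2.37 and 14.3, so the first fell on the opposite side of 1 from the other two. Its log2 fold change was 0.55 ± 1.08 (SE, 95% interval -1.92 to 3.03) with an adjusted p of 0.838 by limma. Its sign was not fixed, being -0.20 without control replicate 3, -0.34 without depleted replicate 3 and 1.78 without depleted replicate 1.

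KRT6A (ENSG00000205420, chromosome 12, 52487176 to 52493257, hg38), a type II partner of KRT16, had 9735, 8260 and 1933 normalized counts in the controls and 29.3, 1951 and 2795 in the depleted samples. Control replicate 3 lay below 2 of the depleted samples, so the groups overlapped. Limma gave a log2 fold change of -3.29 ± 1.55 (SE, 95% interval -6.83 to 0.24) with an adjusted p of 0.288, and the change was -1.20 without depleted replicate 1.

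KRT6B (ENSG00000185479, chromosome 12, 52446651 to 52452146, hg38) had 916, 995 and 501 normalized counts in the controls and 5.49, 228 and 275 in the depleted samples, the first of these from 6 reads. All depleted samples were below all controls. The log2 fold change was -3.38 ± 1.26 (SE, 95% interval -6.26 to -0.49), with an adjusted p of 0.176 by limma and 0.0783 by DESeq2, and it was -1.62 without depleted replicate 1, with an adjusted p of 0.0664. Since the copies cannot be fully separated, their sum was also taken, and it was 10651, 9255 and 2434 in the controls and 34.8, 2179 and 3070 in the depleted samples. For the sum the groups overlapped. KRT6A exceeded KRT6B in all 6 samples, by 3.86 to 10.6 times.

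**Figure D2:**
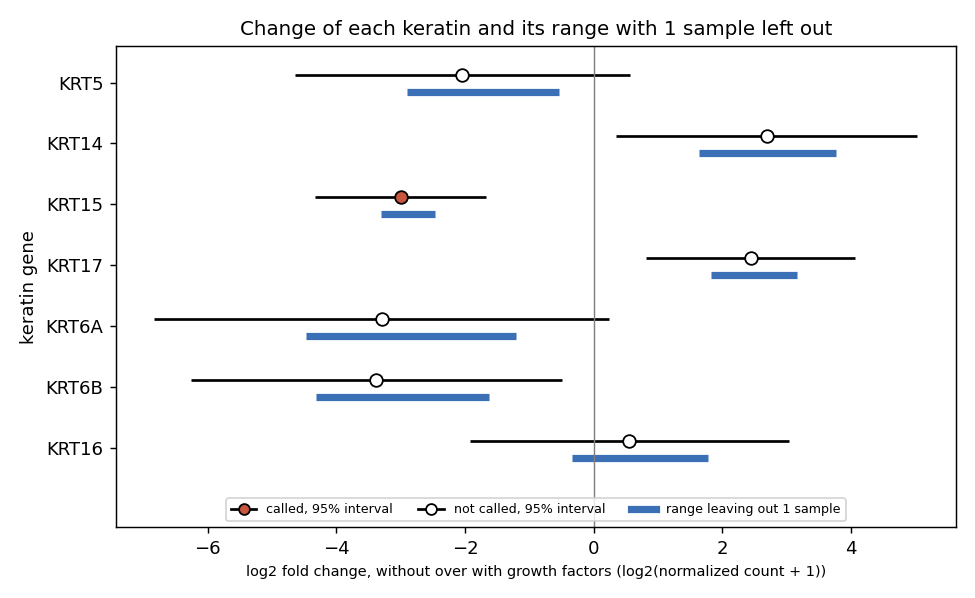
Log2 fold change of each keratin (depleted over control, log2(normalized count + 1)) with its 95% interval in black and, in blue, the range of the estimate when each of the 6 samples is left out in turn. KRT15 is the 1 filled point, and the range of KRT16 crosses 0.

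Levels between genes were compared per kilobase of the union of a gene's annotated exons, and again per kilobase of its canonical transcript, a scale chosen after the first values had been seen. On the union scale KRT15 went from rank 23 among 18913 genes in the controls to rank 320 in the depleted samples, and KRT17 from rank 138 to rank 15. On the canonical scale KRT15 went from 4 to 113 and KRT17 from 111 to 7. KRT14 stayed far lower, at rank 10138 and then 3621 on the union scale.

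The most abundant type I member thus differed between the groups. Per kilobase of exon union, the KRT17 level was 0.169, 0.456 and 0.23 times that of KRT15 in the controls and 8.8, 9.48 and 17.3 times in the depleted samples. On the canonical scale the ratios were 0.0955, 0.259 and 0.131 against 4.98, 5.37 and 9.82. KRT15 was above KRT17 in every control and below it in every depleted sample on both scales. The ratio of KRT6A to KRT16 also lay on opposite sides of 1, at 1.63, 4.03 and 2.63 in the controls and 0.0524, 0.403 and 0.266 in the depleted samples on the union scale.

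The ratio of KRT5 to its partner KRT14 was 79.4, 119 and 555 in the controls and 0.313, 30.8 and 26.7 in the depleted samples on the union scale. KRT5 was the higher of the pair everywhere except in depleted replicate 1. Summed over the 7 genes, type I keratins were 1.89, 2.83 and 2.67 times the type II keratins in the controls and 52.4, 7.16 and 10.1 times in the depleted samples, again without overlap on either scale. This did not extend to all 20 keratin genes of the table, where the answer turned on the length used. The ratio of all type I to all type II keratins was 0.589, 0.425 and 0.806 in the controls and 0.759, 0.968 and 1.09 in the depleted samples on the union scale, and 1.02, 0.711 and 1.4 against 0.68, 1.02 and 1.16 on the canonical scale. The groups overlapped on both. No test was run on these ratios, whose genes include those described above.

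**Figure D3:**
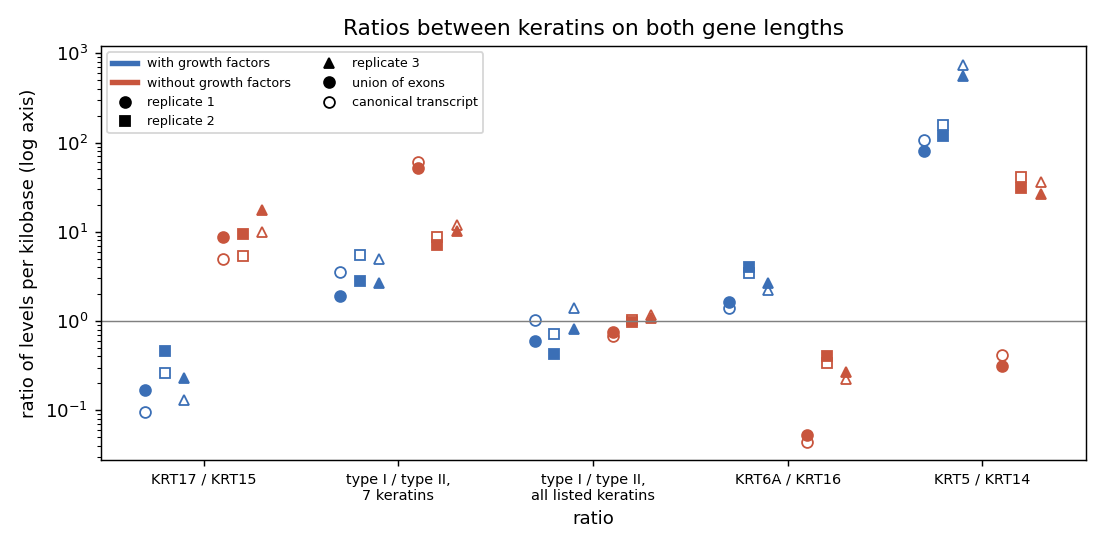
Ratios of keratin levels per kilobase (log axis) in each control (blue) and depleted (red) sample, with filled markers for the union of exons and open markers for the canonical transcript. The KRT17 to KRT15 and KRT6A to KRT16 ratios cross 1 between the groups on both lengths, and the ratio over all listed keratins overlaps on both.

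In the chromosome 12 cluster KRT6B, KRT6A and KRT5 follow each other among the genes of the deposited table, which lacks KRT6C. All of them had negative fold changes, as did KRT81, which lies before KRT6B, at -1.05 and not called. KRT4, KRT8 and KRT18, which lie beyond KRT5, had log2 fold changes of 0.51, 1.10 and 1.17, none of them called. In the chromosome 17 cluster KRT15 lies beside KRT19, a keratin of simple epithelium, which was also called lower at -2.31 ± 0.44 (SE, adjusted p = 0.0196 by limma). KRT19 had 214, 111 and 124 normalized counts in the controls and 30.2, 25.6 and 29.1 in the depleted samples. KRT14, KRT16 and KRT17, at the other end of that stretch, had positive fold changes. Across the 6 samples KRT5, KRT6A and KRT6B varied together, with a Pearson r of log2 values of 0.98 for KRT6A and KRT6B, 0.97 for KRT5 and KRT6A and 0.95 for KRT5 and KRT6B. These values are a description over 6 samples that fall into 2 groups, all 3 follow depleted replicate 1, and the copies share sequence.

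**Figure D4:**
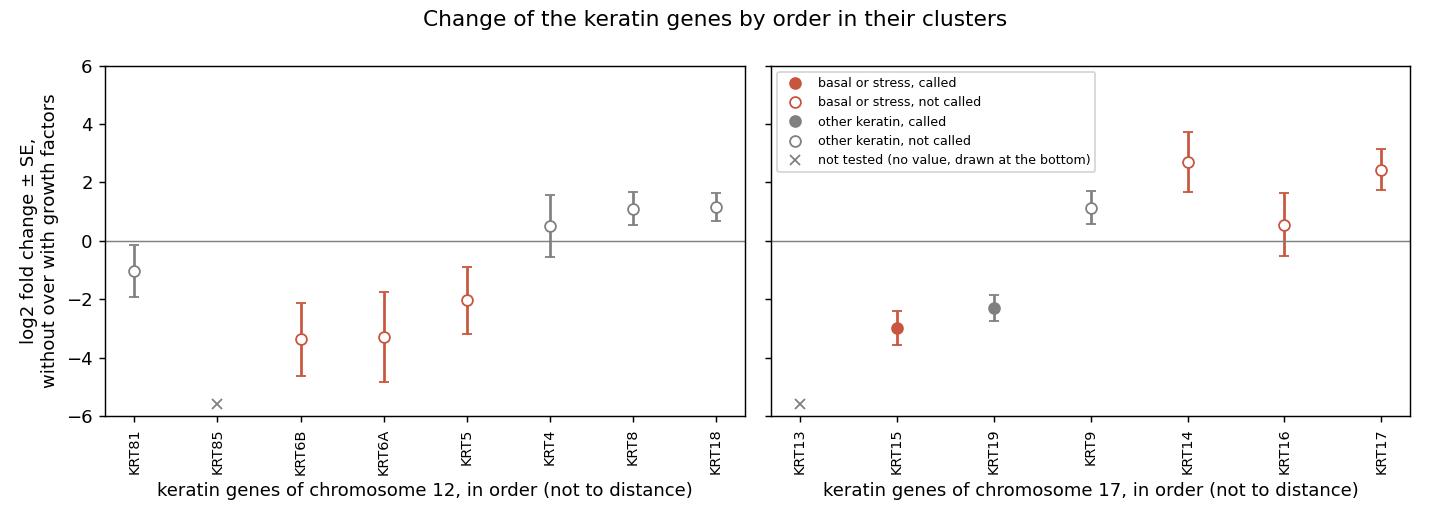
Log2 fold change ± SE of the keratin genes from KRT81 to KRT18 on chromosome 12 and from KRT13 to KRT17 on chromosome 17, in chromosomal order, with the 7 keratins in red, other keratins in grey and filled points for called genes. The called neighbours KRT15 and KRT19 are at -3.00 and -2.31.

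The genes whose pattern over the 6 samples was most like that of each keratin were sought among 11681 other tested genes whose mean reached 100 normalized counts. KRT15 was most like CA2 (carbonic anhydrase), C1orf116 and NEBL, with r of 0.997 to 0.998. KRT5 was most like MTM1, MPZL3 and MPZL2 (r of 0.993 to 0.996), and KRT17 most like HACD1, SUPT5H and TPM4, a tropomyosin (r of 0.995 to 0.999). KRT6A was most like OSBPL1A, RAB25 and FUT3, and KRT6B most like ESRP1, an epithelial splicing regulator, MYO5B and RAB25, with r of 0.990 to 0.998. KRT14 was most like PEX2, TXNDC15 and MAGED1, and KRT16 most like WIPI1, CD24P4 and MAP2K4, with r of 0.980 to 0.985. These r values over 6 samples in 2 groups are a description only.

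Of the 11 other type I and II keratins tested, 1 was called, KRT19, and it was lower, while 6 had a positive and 5 a negative fold change. The median was 0.43. The call of KRT19 was lost without control replicate 1 and without depleted replicate 2 or 3, when 0 genes of the list were called. KRT10 was also called, lower, without control replicate 3, and KRT80, higher, without depleted replicate 1. The median was -0.13 without control replicate 3, 0.76 without control replicate 2 and 0.16 without depleted replicate 3.

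Of 15 genes known to regulate keratin genes, 14 had a negative fold change, with a median of -0.80, but only 1 of the 14 was called. TP63, the master regulator of stratified epithelium, had 271, 359 and 1615 normalized counts in the controls and 8.24, 64.9 and 42.5 in the depleted samples. All depleted samples were lower, and TP63 fell by 4.18 on the log2 scale (SE 0.88, adjusted p = 0.027 by limma). GLI2, a transcription factor of Hedgehog signalling, rose from 1.25, 1.17 and 0.984 normalized counts, 1 to 2 reads per sample, to 54.9, 117 and 114 (adjusted p = 0.00189 by limma). The list's count of 2 was 1 without control replicate 1 or 2 or depleted replicate 3, where TP63 lost its call and GLI2 kept it. The adjusted p of TP63 by limma was then 0.0524, 0.0601 and 0.0664, and it was 0.051 by limma without the trend on all samples. The count was 4 without control replicate 3, when KLF5 and GRHL3 were also called lower. The median was -0.45 without depleted replicate 1.

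Of 13 companions of basal epithelial cells, 4 were called, all lower, and the median was -1.15. They were DSG3, a desmosomal cadherin, LAMA3, a laminin-332 chain, EGFR and TRIM29. DSG3 had 40670, 15645 and 14515 normalized counts in the controls and 167, 1744 and 1026 in the depleted samples, with a log2 fold change of -4.97 and an adjusted p of 0.00965 by limma. LAMA3, EGFR and TRIM29 had log2 fold changes of -2.23, -2.11 and -1.47, with no overlap of the groups. The count of 4 was 1 without control replicate 1 or depleted replicate 3 and 2 without control replicate 2 or depleted replicate 2. The median was -0.54 without depleted replicate 1.

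Of 7 companions of activated keratinocytes, 4 were called, all lower, with a median of -2.18. They were SERPINB3, PI3, S100A8 and S100A9, all of them scarce. PI3, the elastase inhibitor elafin, had 22.6, 90.8 and 18.7 normalized counts in the controls and 0.915, 1.31 and 2.24 in the depleted samples, and S100A9, a calprotectin subunit, had 107, 210 and 70.8 and then 22, 31.5 and 22.4. LCN2, which binds siderophores, had the opposite sign at 1.89 (adjusted p = 0.117 by limma). None of the list was called without control replicate 2 or depleted replicate 2 or 3. Without depleted replicate 1 the 1 call was TGM1, lower, and not among the 4. Without control replicate 1 the calls were SERPINB3, lower, and LCN2, higher. Of 11 tested genes that link keratin filaments to junctions or hemidesmosomes, 1 was called, EVPL (envoplakin), which fell by 2.14 on the log2 scale (SE 0.33, adjusted p = 0.00778 by limma), and the median was -0.45, or -0.18 without depleted replicate 3.

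**Figure D5:**
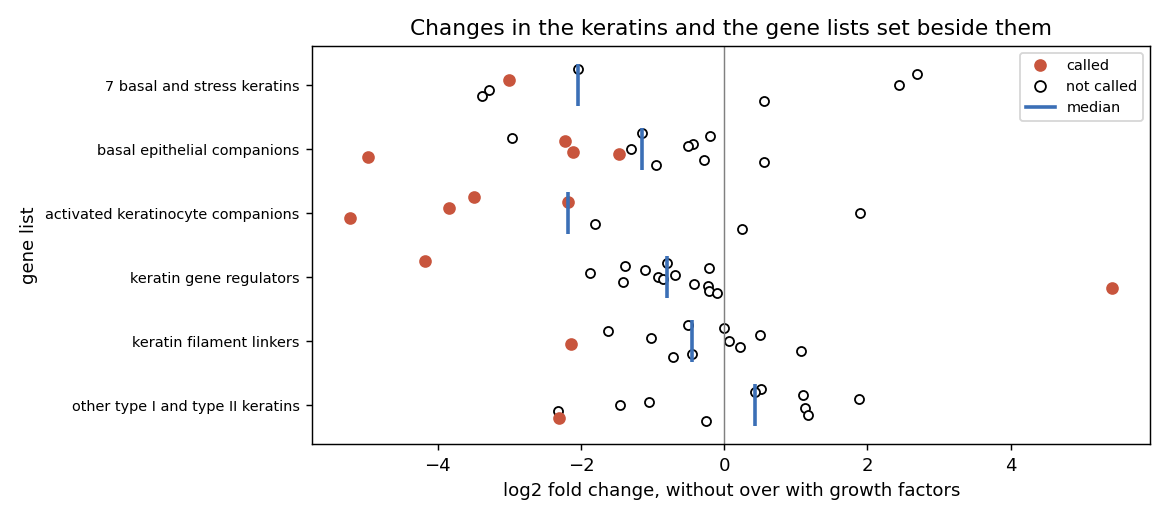
Log2 fold changes (depleted over control) of the 7 keratins and of the tested genes in 5 lists set beside them, with called genes in red and the median of each list in blue. The medians are -2.04 for the 7 keratins, -1.15 and -2.18 for the companion lists, -0.80 for the regulators, -0.45 for the linkers and 0.43 for the other keratins, and those of the 7 keratins and of the basal companions are both -0.54 without depleted replicate 1.

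Fibroblast marker genes rose in the same comparison. Of 10, 9 were tested and 7 were called higher, with a median of 5.94. Their summed level was 2129, 1521 and 936 normalized counts in the controls and 47271, 34096 and 25288 in the depleted samples. It was highest in depleted replicate 1, the sample with the least KRT5, KRT15, KRT6A, KRT6B and KRT16. That sample also had the most KRT14, and its KRT17 was above that of every control. By gene, COL1A1, POSTN and FAP were highest in depleted replicate 2, and the other tested fibroblast markers in depleted replicate 1. FAP had 1939, 7412 and 5919 normalized counts in the depleted samples. COL3A1, LUM and COL1A2 rose in all 3 depleted samples, LUM from 3.76, 0 and 0.984 to 5491, 2086 and 1981, while THY1 was at or near 0 throughout, at 0 to 0.984 in the controls and 2.75 to 6.71 in the depleted samples. The part of these genes' source in the keratin values was not tested. Of the leukocyte list, CD14 was tested and had an adjusted p of 0.355, and PTPRC lay between 0 and 1.97 in the controls and between 10.1 and 13.8 in the depleted samples. Of 3 endothelial genes tested, CDH5 was called higher. Its call was lost without control replicate 1 or 2 and without depleted replicate 2 or 3. The others were not called, with log2 fold changes of -3.83 for KDR (adjusted p = 0.193 by limma) and 0.09 for PECAM1. Of 7 luminal genes tested, AREG, an EGF receptor ligand, was called lower, from 950, 3951 and 566 normalized counts to 85.1, 59 and 82.7.

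Promoter windows from RefSeq (GRCh38.p14, 250 bases before to 50 after the gene start) matched 1 of the 7 genes, KRT5. Its window runs from 52520345 to 52520644 on the minus strand. The Gencode gene printed above begins at 52520530 on that strand, so the RefSeq and Gencode starts differ. Of 5 motifs searched on both strands, the KRT5 window held 1 match, to TGTTCT, part of the glucocorticoid response element, starting at base 33 after the RefSeq start. TGTTCT occurred in 14.8% of 35116 promoters of the same length. The window did not hold the AP-1 motif TGANTCA, found in 7.71% of promoters. It did not hold the Sp1 motif GGGCGG, found in 45%, or the AP-2 motif by the letters GCCNNNGGC, found in 23.2%. Nor did it hold TATAAA, the box of that name, found in 11.5%.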

How the data were processed

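RNA from MCF10A cells was sequenced in 3 samples per group. Libraries were stranded, made after ribosomal RNA depletion and read single-end over 100 bases. Alignment to hg38 used TopHat2, and HTSeq assigned reads to Gencode v22 genes. The deposited values are a normalized signal, counts divided by DESeq2 size factors by the authors, not divided by length. The strand setting of the counting is not given in the sources used here, and a transcript antisense to KRT17 is annotated in Gencode v44.

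Every deposited value (100%) was within 0.01 of a whole multiple of 1 read, so reads were recovered. The table was fitted with limma 3.58.1 (trend) on log2(normalized count + 1) where the mean reached 10, and calls required 2-fold change or more together with an adjusted p under 0.05. On the recovered reads, edgeR 4.0.16 called 971 genes and DESeq2 1.42.0 called 2112, where limma called 1076. The exact permutation test of 3 against 3 samples cannot go below p = 0.1 and was not used. The fit was tested on simulated data.

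Gencode v44 named 18913 of 19198 genes and gave gene lengths. Both lengths used in ratios came from it. The union of exons was computed first. The canonical transcript was added after the union values had been seen, because no length had been chosen in advance, and both are reported. The members and all gene lists were chosen with earlier results of these data known. Genes named were the 7 keratins, TP63, the called genes of each list (at most 4 by size of change), pseudogene copies and the 3 genes most like each keratin. LCN2, TGM1, KRT10, KRT80, KLF5, GRHL3, ESR1, FOXA1, EPCAM and MUC1 were named outside this rule, after their values were seen. So were THY1, CD14, PTPRC, KDR, PECAM1, COL1A1, POSTN, FAP, KRT81 and the neighbours KRT4, KRT8 and KRT18. PGR, ELF5 and KIT were named only as missing from the deposited table. Intervals of means are SD over samples, and a floor of 3 reads covers counting error only. Alternatives were other pseudocounts, filters, scalings, variance models and tests, the replicate number as a block, and each sample left out. Printed stretches of the KRT6 coding sequences are not reported here.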

Additional observations from a re-analysis of the deposited data

How the results depend on the processing

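With 1 sample left out in turn, the number of genes called ranged from 453 to 2474 over all genes, from 0 to 1 for keratins called lower, from 0 to 1 for keratins called higher, from 0 to 2 for the other keratins, from 1 to 4 for the regulators, from 1 to 5 for the basal companions and from 0 to 5 for the activated keratinocyte companions. KRT16 ranged from -0.34 to 1.78 and reversed, to -0.20 without control replicate 3 and to -0.34 without depleted replicate 3. Of 112 alternative values for the 7 keratins, 102 kept direction and side of the threshold, 5 lost the call (all KRT15), 3 gained one and 2 reversed. DESeq2 called 2112 genes, 1 keratin higher, 3 other keratins and 2 linkers. Quantile normalization called 2 other keratins. limma without the trend called 1 regulator and 2 basal companions, edgeR 2 basal companions. A minimum mean of 50 left 1 regulator and 0 activated keratinocyte companions called, where S100A8 and PI3 were no longer tested and S100A9 and SERPINB3 had adjusted p of 0.0631 and 0.0844, and a pseudocount of 10 left 1. With a replicate block, 967 genes were called, and 1 keratin, KRT14, was called higher (adjusted p = 0.0304). The labels give a replicate number and do not say whether same-numbered samples were handled together. Over the genes tested, deviations of same-numbered samples from their group means correlated at -0.073, -0.283 and -0.323. Centring 3 samples per group ties such values to each other, so they cannot decide whether the samples were paired. The canonical transcript length, added after the data were seen, moved the mean control ratio of all type I to type II keratins from 0.607 to 1.04 while the depleted mean was 0.938 and then 0.953, so the order of the means turned. It moved the mean control ratio over the 7 keratins from 2.46 to 4.64 and the mean depleted KRT17 to KRT15 ratio from 11.9 to 6.72. The cause of these differences between settings was not tested, except that length enters the ratios directly. Low counts limit KRT14 in control replicate 3 and KRT6B in depleted replicate 1.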
